A study of Mus musculus with 4 samples.

Results

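Amino acid uptake was described here through 7 of the 31053 genes in the deposited feature lists: the transporter genes Slc7a5, Slc3a2, Slc7a6, Slc1a5, Slc38a1 and Slc38a2, and the transcription factor gene Myc. The genes were chosen by name. Their UMI counts, which count single captured RNA molecules, were read in 34829 T cells, of which 18972 came from replicate 1 and 15857 from replicate 2. A barcode was taken as a T cell when it held at least 1000 UMIs and 500 genes, at most 10% mitochondrial UMIs and at least 1 UMI of Cd3e, Cd3d or Cd3g.

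The series profiled sorted CD4 T cells of the strain BALB/c RAG2-/- TS1 Tg in graft-versus-host disease (GVHD), where transplanted T cells attack the recipient's tissues. RAG2-/- cells cannot rearrange receptor genes of their own, and TS1 is a transgenic T cell receptor, so all cells are meant to carry the same receptor. Cells of spleen, colon, skin and the intraepithelial and lamina propria layers of the small intestine were pooled 4 weeks after transplantation, with 1 expression library and 1 hashtag library for each of 2 replicates. The strain, the disease and the time are shared by every cell, there is no untreated group, and the labels do not say that the replicates came from separate animals. Every SD and p-value below therefore rests on 2 pooled libraries, whose spread may be technical.

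As background, growing T cells import amino acids to make protein and to feed the mTORC1 kinase complex. Slc7a5 (LAT1) carries leucine and other large neutral amino acids, and it reaches the cell surface only as a heterodimer with Slc3a2 (the CD98 heavy chain), which also pairs with Slc7a6 (y+LAT2), a carrier of basic and neutral amino acids. Slc1a5 (ASCT2) exchanges neutral amino acids such as glutamine, and Slc38a1 (SNAT1) and Slc38a2 (SNAT2) take up glutamine and other small neutral amino acids together with sodium. Activated T cells make Myc protein, which drives ribosome production and metabolic genes and is needed for the rise in amino acid transporters after receptor stimulation, and Myc protein in turn depends on amino acid supply. RNA levels, as measured here, do not show protein or transport.

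In the mm10 genome, with GENCODE annotation, all 7 are protein-coding genes. Slc1a5 (ENSMUSG00000001918) lies on chromosome 7 from 16781340 to 16798274, plus strand. Slc7a6 (ENSMUSG00000031904, 106168857 to 106198706, plus strand) and Slc7a5 (ENSMUSG00000040010, 121881150 to 121907694, minus strand) lie on chromosome 8. Slc7a5 lies within Gm20388, a longer annotated gene on the other strand, so Slc7a5 counts are its own only if reads were assigned by strand, which the sources used here do not state. Chromosome 15 holds Myc (ENSMUSG00000022346, 61985391 to 61990374, plus strand) and, next to each other on the minus strand, Slc38a1 (ENSMUSG00000023169, 96571418 to 96642913) and Slc38a2 (ENSMUSG00000022462, 96687392 to 96699730). Slc3a2 (ENSMUSG00000010095) lies on chromosome 19 from 8706882 to 8723369, minus strand.

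The RefSeq promoter table (GRCm38.p6) holds 3 of the 7 genes, Slc3a2, Slc38a2 and Slc7a6. The 250 bases before the start are shown for Slc3a2 and Slc38a2, which passed the test together in 4 of the comparisons below. The Slc3a2 window is chr19:8713898-8714147 and the Slc38a2 window chr15:96699729-96699978, both read on the minus strand from 5′ to 3′. The Slc3a2 window lies inside the annotated span of the gene given above, so it precedes the start used by RefSeq and not that of the longest annotated transcript. Capitals mark GGGCGG or its complement CCGCCC, the GC box bound by Sp1-type factors.
Slc3a2: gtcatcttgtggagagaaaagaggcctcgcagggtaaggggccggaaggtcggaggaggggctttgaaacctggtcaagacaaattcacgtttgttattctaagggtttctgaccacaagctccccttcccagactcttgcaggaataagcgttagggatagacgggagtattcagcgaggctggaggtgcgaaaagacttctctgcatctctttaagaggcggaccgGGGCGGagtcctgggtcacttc
Slc38a2: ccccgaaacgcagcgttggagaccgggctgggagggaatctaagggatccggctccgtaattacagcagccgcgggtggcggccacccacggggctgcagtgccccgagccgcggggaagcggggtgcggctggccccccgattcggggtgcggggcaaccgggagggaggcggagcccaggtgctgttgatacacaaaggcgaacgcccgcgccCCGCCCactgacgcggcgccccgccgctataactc
Each window holds 1 GC box, a motif that was chosen after the sequences were seen. It occurs in 32.7% of the 32851 promoter windows of the same length, searched on both strands. The E-box CACGTG, to which Myc with Max binds, and TGATGNAA, a core of the sites of the amino acid response factor Atf4, have 0 matches in either window and occur in 6.02% and 3.45% of all windows. A match or its lack describes only these letters in this window.

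The expression libraries held 89427990 UMIs in replicate 1 and 108082997 in replicate 2, with a median of 2689 and 3702 UMIs per T cell. Each cell was thinned at random to 1500 UMIs, and 3712 and 1018 shallower cells were left out, so that classes are compared at 1 depth. The hashtag libraries gave 0 hashtag features, so no cell has a tissue, and a class difference cannot be told apart from a difference in tissue of origin. The 2 libraries share 578 T cell barcodes, which make up 10.7% and 10.2% of the cells with cycling genes but at most 1.10% and 1.00% of any other class. At least 2 markers of another cell type were found in 3.23% of T cells in replicate 1 and in 13.0% in replicate 2. Results that rest on the shared barcodes or on cells with such markers are given with and without them.

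Cells were placed in classes by the UMIs left after thinning: at least 2 of 20 cycling genes, or Itgae together with Cd8a, or Tcf7, or Il10, or Il13 or Csf2. Itgae (CD103) binds E-cadherin on epithelial cells, Cd8a encodes a CD8 chain, Tcf7 encodes the factor TCF-1 of naive and memory-like T cells, Il10 a suppressive cytokine, and Il13 and Csf2 (GM-CSF) effector cytokines. The classes held 2442 and 1608 cells with cycling genes in replicates 1 and 2, 1735 and 1821 with Itgae and Cd8a, 672 and 687 with Tcf7, 416 and 516 with Il10, and 1096 and 1013 with Il13 or Csf2. The reference class of 7604 and 8273 cells had none of these genes, and cells with more than 1 of the 5 flags (8.49% and 6.21%) were left out. Cd4 stood at 206 and 210 CPM (UMIs of the gene per 1000000 thinned UMIs) in the reference and at 235 and 227 CPM in the class with Itgae and Cd8a, so Cd4 RNA was not lower there. Cd8b1, the other CD8 chain, stood at 108 and 96.3 CPM there against 45.2 and 40.9 CPM in the reference.

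Over all T cells, Slc38a2 was measured at 364 ± 1.15 CPM (SD, n = 2 libraries), Slc3a2 at 212 ± 17.7, Slc38a1 at 134 ± 8.60 and Slc1a5 at 65.7 ± 0.579 CPM. Myc stood at 21.8 ± 2.54, Slc7a5 at 18.5 ± 2.74 and Slc7a6 at 8.13 ± 0.184 CPM. These values were not adjusted for differences between genes in capture. They are used to rank cells within a gene and not the genes among themselves. A UMI was found in 37.2% ± 0.472 of thinned cells for Slc38a2 and 25.6% ± 1.36 for Slc3a2, but in only 2.93% ± 0.285 for Myc, 2.68% ± 0.356 for Slc7a5 and 1.21% ± 0.0277 for Slc7a6. Without thinning the Myc and Slc7a5 shares were 6.81% and 6.62%, so depth limits how many cells can be seen to hold these RNAs.

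Free RNA sets a floor under such shares. Barcodes with fewer than 100 UMIs held Slc7a5 at 18.3 and 20.5 CPM and Myc at 20.7 and 18.2 CPM, close to the T cells that make up most of the sample. A comparison is given by barcodes with Cd3 and at least 3 neutrophil markers, 105 cells with a median of 3071 UMIs and 295 cells with a median of 3289. Slc7a5 was seen there in 0 of 105 cells, which allows a share with a UMI of up to 2.86% (3 counts of 105; the exact upper bound is 3.45%), and in 0.678% of 295. Myc was seen in 2.86% and 0.678% and Slc7a6 in 0.952% and 0.678%. Since 64.8% and 75.9% of these barcodes held Cd3e, they are partly T cell RNA and no clean background. Tcf7 was found in 1.90% and 5.76% of them, against 6.07% and 6.13% of all thinned T cells. Il10 was found in 3.81% and 3.73% of them, against 4.10% and 4.72%. The classes with Tcf7 or Il10 are therefore sets of cells with a UMI, whose shares are not shown to lie above these barcodes. Of the barcodes 0.952% and 4.07% held Il13 and 6.67% and 4.41% Csf2, while 11.1% and 9.39% of thinned T cells held either. Itgae was held by 19.05% and 17.97% of the barcodes and Cd8a by 35.2% and 16.6%, and both by 15.3% and 15.3% of thinned T cells. The share of the barcodes with either Il13 or Csf2, or with both Itgae and Cd8a, was not counted. The shares of the classes with Il13 or Csf2 and with Itgae and Cd8a are likewise not shown to lie above these barcodes. The Slc7a6 share in T cells was not clearly above them, and no Slc7a6 share is read here as expression. The Myc share of T cells in replicate 1 was likewise not above the 2.86% of these barcodes by more than counting error.

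The class with Il13 or Csf2 had the most Slc7a5 RNA and more Slc3a2 RNA than the reference, the class with Il10 the most Myc, and the class with Itgae and Cd8a the least of most members. All 7 genes passed the low-count filter of the class fit, in which 9544 genes were tested with edgeR's quasi-likelihood test at a Benjamini-Hochberg adjusted p under 0.05. Against the reference, 5 of 7 members were lower in the class with Itgae and Cd8a (Myc, Slc7a5, Slc3a2, Slc38a1, Slc38a2), where 31.4% of all genes passed and 16.9% were lower. In cells with cycling genes 3 were lower (Slc3a2, Slc38a1, Slc38a2), against 37.5% of genes that passed and 16.6% that were lower. In the Il10 class 3 were higher (Myc, Slc38a1, Slc38a2), against 6.27% that passed and 3.7% that were higher. In the class with Il13 or Csf2, 2 were higher (Slc7a5, Slc3a2), against 15.4% that passed and 9.52% that were higher. In the Tcf7 class edgeR called 0 of 7 members, against 5.27% of genes, with 2 members at an unadjusted p under 0.05. DESeq2 and edgeR with relative log expression scaling also called 0 there.

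The split of calls into higher and lower depends on scaling in some classes. With TMM scaling 353 genes were higher and 245 lower in the Il10 class, and with library totals 219 and 337. For the class with Il13 or Csf2 the numbers were 909 and 557 with TMM and 762 and 781 with library totals. No member call of these 2 classes changed direction with library totals, and the Slc38a2 call in the Il10 class was lost.

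**Figure D1:**
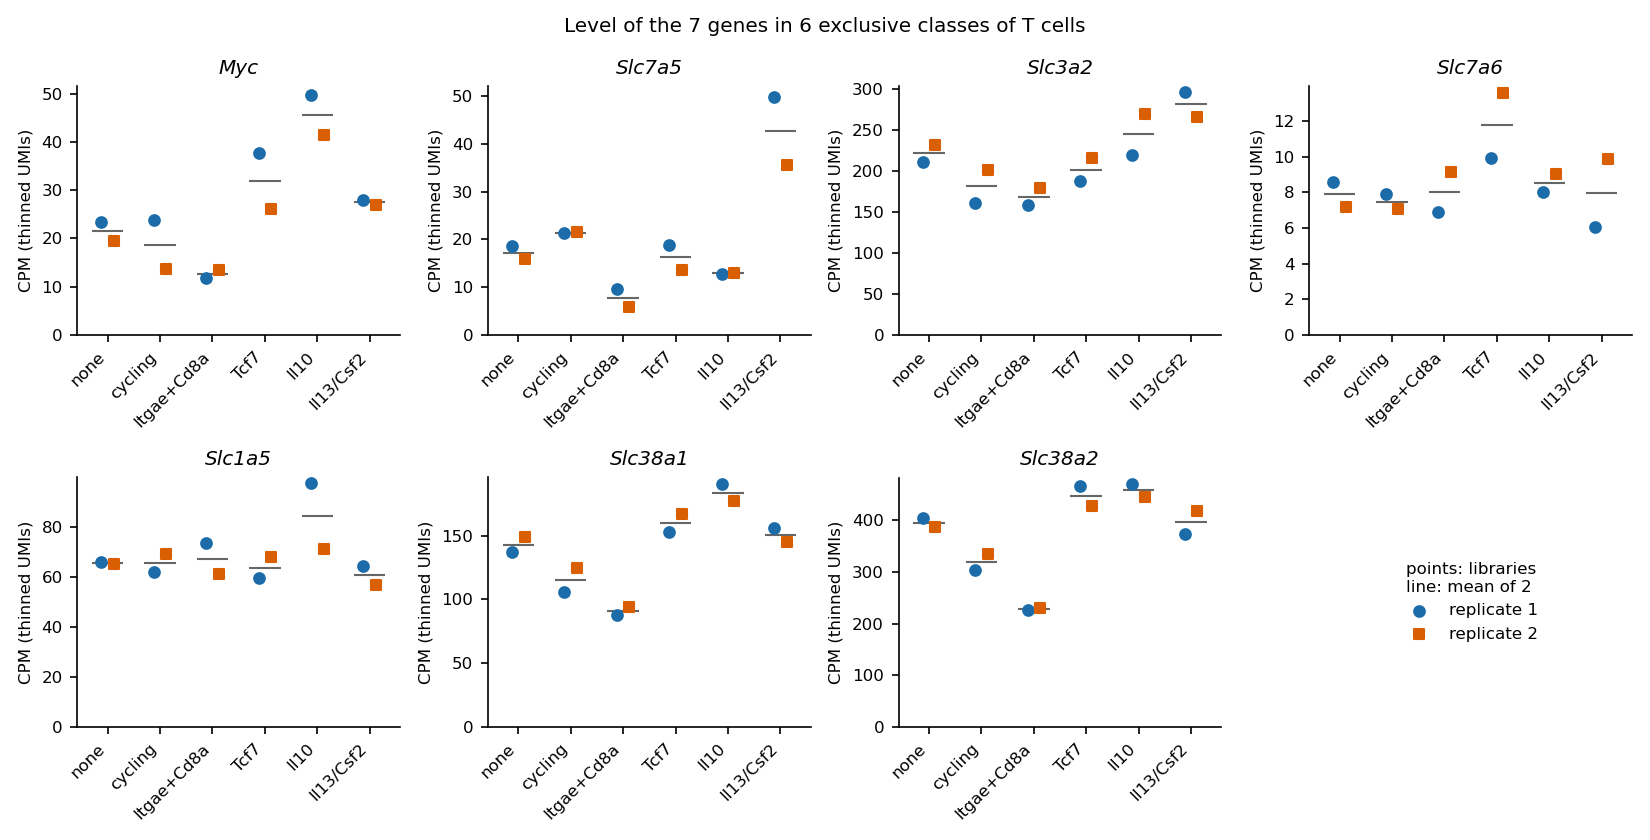
Level of each of the 7 genes in CPM of thinned UMIs (vertical axis) in 6 classes of T cells (horizontal axis), with 1 point for each of 2 libraries and a line at their mean. Slc7a5 stands highest in the class with Il13 or Csf2, at 49.9 and 35.5 CPM, and Myc highest in the Il10 class, at 49.7 and 41.3 CPM.

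Slc7a5, the leucine carrier, stood at 49.9 and 35.5 CPM (replicates 1 and 2) in the class with Il13 or Csf2 and at 18.6 and 15.9 CPM in the reference. Both libraries of the class lay above both libraries of every other class. The difference was a log2 fold change of 1.37 ± 0.16 (SE, n = 2 libraries), or 2.58-fold, with an edgeR adjusted p of 3.19e-10. It held in all 13 alternatives that gave a test, at 1.05 to 1.51, and was 1.35 without cells that held both Hspa1a and Hspa1b and 1.38 without cells that held markers of another type.

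At the other end, Slc7a5 stood at 9.61 and 5.86 CPM in cells with Itgae and Cd8a, lower than the reference in both libraries by a log2 fold change of -1.13 ± 0.22 (edgeR adjusted p = 2.41e-05). This class and the class with Il13 or Csf2 differed by 2.49 ± 0.23, or 5.63-fold, with an edgeR adjusted p of 3.49e-14. Between them lay the Il10 class at 12.8 and 12.9 CPM, the Tcf7 class at 18.8 and 13.6 CPM, the reference, and cells with cycling genes at 21.3 and 21.6 CPM. Of the neighbours in this order that were tested, none of these 4 passed with edgeR, but the Il10 class exceeded cells with Itgae and Cd8a without thinning (1.06) and in a second random thinning (1.24). The value for cells with cycling genes against the reference was 0.33 ± 0.16 (edgeR adjusted p = 0.0953).

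The share of cells with a Slc7a5 UMI was ordered in the same way in the 3 classes compared next. It was 6.84% (exact Clopper-Pearson 95% interval 5.42 to 8.50) and 5.13% (3.86 to 6.68) in the class with Il13 or Csf2. It was 2.71% and 2.36% in the reference and 1.38% (0.888 to 2.05) and 0.879% (0.503 to 1.42) in cells with Itgae and Cd8a. The intervals cover counting error only. Those of the class with Il13 or Csf2 lay apart from those of the class with Itgae and Cd8a in both libraries, and above the 3.45% that the neutrophil-marked barcodes of replicate 1 allow. The shares of the reference, of cells with Itgae and Cd8a and of the Il10 class (1.92% and 1.74%) lie under that limit, and the intervals of the Tcf7 class and of cells with cycling genes reach below it. None of these shares is read as expression, so the lower Slc7a5 of cells with Itgae and Cd8a is a difference between levels that are not shown to lie above those barcodes.

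Slc7a5 was also split by the genes behind each class. With Il13 and Csf2 together it stood at 53.2 and 70.9 CPM, with Il13 alone at 61.4 and 25.7 CPM and with Csf2 alone at 40.9 and 29.4 CPM. The 3 sets overlap, and each lay above the reference in both libraries. Over all cells without cycling genes, those with neither Itgae nor Cd8a had 23.7 and 18.3 CPM, those with Itgae alone 23.1 and 19.1, those with Cd8a alone 15.3 and 12.7, and those with both 9.67 and 6.42 CPM. Cells with Itgae alone thus overlapped cells with neither, and the lower values were found with Cd8a and lowest with both genes. Slc38a2 stood at 445 and 420.2 CPM with neither gene, 362 and 385 with Itgae alone, 305 and 300.2 with Cd8a alone and 234 and 235 CPM with both, so that here each gene alone already went with a lower level. These finer splits were not tested.

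**Figure D2:**
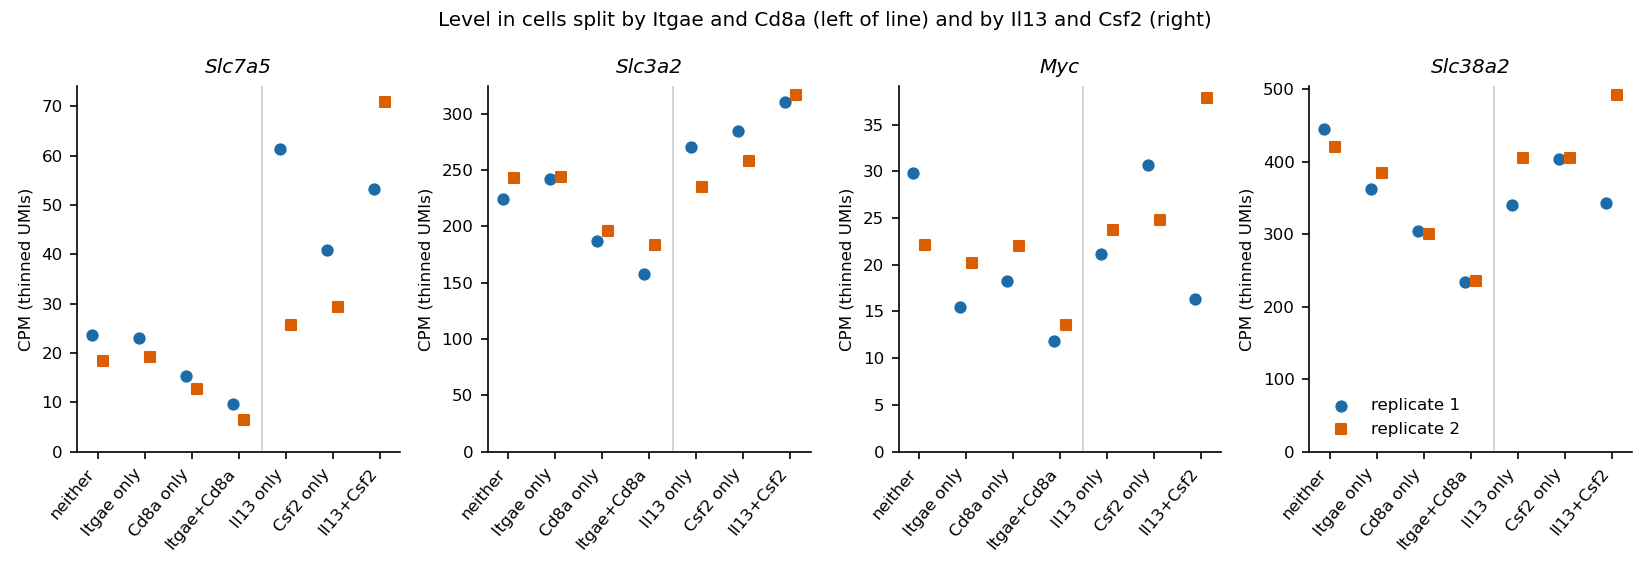
Levels of Slc7a5, Slc3a2, Myc and Slc38a2 (vertical axis, CPM of thinned UMIs) in cells split by Itgae and Cd8a, left of the line, and by Il13 and Csf2, right of it (horizontal axis), with 1 point per library. Slc7a5 is lowest where both Itgae and Cd8a were detected, at 9.67 and 6.42 CPM, and Slc38a2 is lower with each of the 2 genes and lowest with both.

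Slc3a2, the partner chain of Slc7a5, stood at 297 and 266 CPM in the class with Il13 or Csf2 against 211 and 232 CPM in the reference. The libraries did not overlap. The log2 fold change of 0.41 ± 0.07 (edgeR adjusted p = 8.42e-06) was smaller than that of Slc7a5, and it was 0.24 without replicate 1 and 0.56 without replicate 2. Slc3a2 was lower than the reference in cells with Itgae and Cd8a, at 159 and 179 CPM (-0.36 ± 0.07, edgeR adjusted p = 2.75e-05), and in cells with cycling genes, at 161 and 201 CPM (-0.27 ± 0.07, edgeR adjusted p = 0.000933). The cycling call was lost with DESeq2, without the library block, and without the 5% of cells with the most UMIs, where it was -0.18. The Tcf7 class, at 187.5 and 215 CPM, overlapped the reference. The Il10 class stood at 219.6 and 270.0 CPM, with a difference of 0.23 ± 0.09 from the reference that did not pass (edgeR adjusted p = 0.177).

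Slc7a6, the other partner of Slc3a2, stood between 6.08 and 13.6 CPM in every class and library. Its values overlapped between the reference (8.59 and 7.17 CPM) and every class but the Tcf7 class (9.92 and 13.6 CPM). With edgeR it passed in 0 of 11 class comparisons and had an unadjusted p under 0.05 in 0 of them, and DESeq2 called it in 0. A second random thinning called it in 2 of them, so at these low counts the draw of UMIs alone moves its value.

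Slc1a5, the glutamine exchanger, stood at 65.8 and 65.2 CPM in the reference and between 56.6 and 73.4 CPM in every other class but the Il10 class. There it reached 97.8 and 71.1 CPM, above the reference in both libraries but far apart from each other (0.42 ± 0.15, edgeR adjusted p = 0.0915). Leaving out replicate 1 gave 0.20 and leaving out replicate 2 gave 0.65. Slc1a5 was called in 0 of 11 class comparisons by edgeR, with an unadjusted p under 0.05 in 4, and in 0 by DESeq2. All 4 involve the Il10 class. Alternatives did call it: lower in the class with Il13 or Csf2 than in the Il10 class without cells with Hspa1a and Hspa1b (-0.51) and without cells with markers of another type (-0.57). In the second random thinning it was called higher in cells with Itgae and Cd8a than in the reference (0.29) and lower in the class with Il13 or Csf2 than in cells with Itgae and Cd8a (-0.45).

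Slc38a1 and Slc38a2, the sodium-coupled carriers that lie next to each other on chromosome 15, were lowest in cells with Itgae and Cd8a. Slc38a2 stood there at 226 and 229 CPM against 405 and 387 CPM in the reference, with a log2 fold change of -0.77 ± 0.06 (edgeR adjusted p = 5.02e-17). Slc38a1 stood at 87.6 and 94.1 CPM against 137 and 149 CPM (-0.62 ± 0.08, edgeR adjusted p = 1.98e-09). For both genes the 2 libraries of the class lay below every library of every other class, and the calls held in all 13 alternatives, at -0.86 to -0.73 and -0.76 to -0.61. Neutrophil marker RNA was also lower in this class, a summed 136 and 402 CPM against 1546 and 2998 CPM in the reference, as it was in the class with Il13 or Csf2, at 595 and 852 CPM. Without the cells that held 2 or more markers of another type, cells with Itgae and Cd8a stood at -0.79 for Slc38a2, -1.11 for Slc7a5 and -0.80 for Myc, and all 3 calls held. Cells with cycling genes came next, with Slc38a2 at 304 and 334 CPM (-0.28 ± 0.06, edgeR adjusted p = 3.33e-05) and Slc38a1 at 106 and 125 CPM (-0.28 ± 0.07, edgeR adjusted p = 0.00137).

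The cycling values depend in part on the deepest cells. Without the 5% of cells with the most UMIs the Slc38a2 value was -0.14 and no longer passed, while the Slc38a1 value was -0.24 and passed. Without the barcodes that both libraries share, Slc38a2 was at -0.22, Slc38a1 at -0.28 and Slc3a2 at -0.23, and all 3 passed. Cells with cycling genes also carried more neutrophil marker RNA, a summed 3633 and 6290 CPM against the reference values given above, but without the cells that held 2 or more markers of another type the 3 calls held, at -0.28 for each gene.

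In the Il10 class Slc38a1 stood at 191 and 177 CPM (0.43 ± 0.10, edgeR adjusted p = 0.00337) and Slc38a2 at 471 and 446 CPM (0.29 ± 0.07, edgeR adjusted p = 0.00601), above the reference in both libraries. The Slc38a2 call is fragile: 6 of 13 alternatives lost it, among them library totals (0.21), no thinning (0.14) and a second random thinning (0.13). In the Tcf7 class Slc38a2 stood at 467 and 428 CPM (0.16 ± 0.07, edgeR adjusted p = 0.166) and Slc38a1 at 153 and 167 CPM. The class with Il13 or Csf2 had 374 and 419 CPM of Slc38a2 and 156 and 145 CPM of Slc38a1, both overlapping the reference.

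Slc38a2 also varied with the depth of the cell before thinning. Over 4 depth bins of equal cell number its level went from 427 CPM in the shallowest to 267 CPM in the deepest in replicate 1 and from 480 to 276 CPM in replicate 2. Below the median depth of a library the reference stood at 468 and 440.5 CPM and cells with Itgae and Cd8a at 282 and 270.3 CPM, and above it at 337 and 321 CPM against 199 and 202 CPM. The lower Slc38a2 level of cells with Itgae and Cd8a was thus found below and above the median of both libraries. Cells with cycling genes stood at 320.2 and 461 CPM below the median, so that in replicate 2 they exceeded the reference there, and at 288 and 271 CPM above it. Slc7a5 in the class with Il13 or Csf2 was not lower in deeper cells, at 42.7 and 35.4 CPM below the median and 57.4 and 35.7 CPM above it, against 17.5 and 14.6 and then 19.7 and 17.4 CPM in the reference. The cells with Itgae and Cd8a had more UMIs, a median of 3731 and 4236 against 3054 and 3653 in the reference. Cells with cycling genes had a median of 3303 and 6496, so their lower values are mixed with depth, most of all in replicate 2. The part of depth in them was not tested beyond these splits and the values without the deepest cells.

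**Figure D3:**
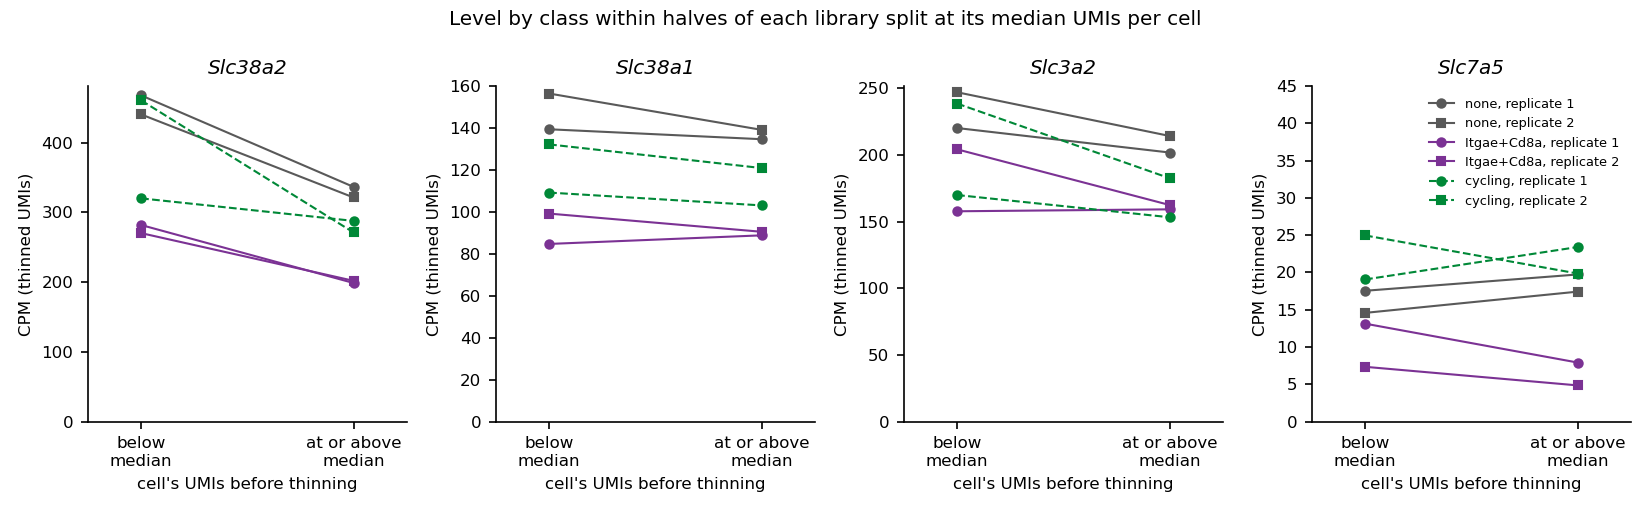
Levels of Slc38a2, Slc38a1, Slc3a2 and Slc7a5 (vertical axis, CPM of thinned UMIs) in cells below and above the median UMIs of their library (horizontal axis), for the reference, cells with Itgae and Cd8a and cells with cycling genes, with 1 point and line per library. Slc38a2 in cells with Itgae and Cd8a lies below the reference on both sides of the median, at 282 and 270.3 CPM against 468 and 440.5 CPM below the median.

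Myc, the transcription factor, was highest in the Il10 class, at 49.7 and 41.3 CPM against 23.5 and 19.4 CPM in the reference. Both libraries lay above every library of every other class. The log2 fold change was 1.16 ± 0.22 (edgeR adjusted p = 7.51e-05), and it held in all 13 alternatives at 0.95 to 1.29. The Il10 level rests on 31 and 32 Myc UMIs, found in 5.05% and 5.04% of the cells. Cells with Itgae and Cd8a had the least Myc, at 11.9 and 13.5 CPM (-0.71 ± 0.18, edgeR adjusted p = 0.00143), a call that was lost after thinning to 1000 UMIs, at -0.37. Leaving out replicate 1 or replicate 2 moved that value between -0.49 and -0.93. The level of this class lies below that of free RNA (20.7 and 18.2 CPM). The exact upper bounds of the Myc share in the neutrophil-marked barcodes were 8.12% and 2.43%. The Il10 shares lie under the first bound and above the second. The shares of cells with Itgae and Cd8a (1.56% and 1.98%) lie under both. No Myc share is read as expression, so both results are differences between levels not shown to lie above those barcodes in both libraries.

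The Tcf7 class stood at 37.7 and 26.2 CPM of Myc, above both reference libraries, with a log2 fold change of 0.56 ± 0.20 that did not pass (edgeR adjusted p = 0.114). A second random thinning turned this value to -0.20, so the few Myc UMIs of this class do not fix a direction. The class with Il13 or Csf2 stood at 28.0 and 27.0 CPM (0.41 ± 0.18, edgeR adjusted p = 0.120), also above both reference libraries. Cells with cycling genes had 23.8 and 13.7 CPM, on either side of the reference. Myc RNA was thus not called higher in cells that express cycling genes.

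**Figure D4:**
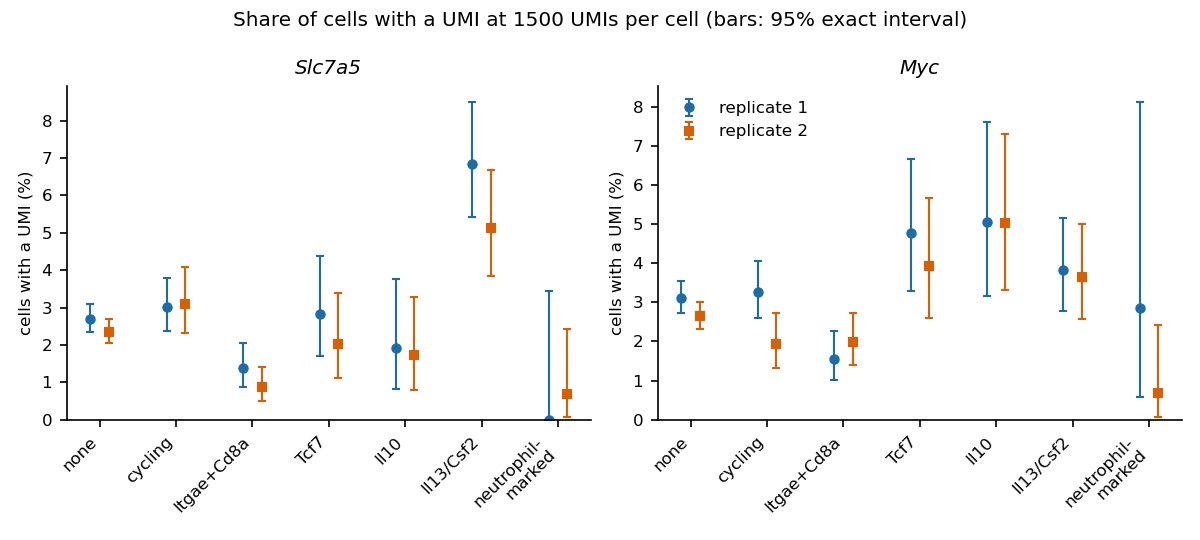
Share of thinned cells with at least 1 UMI of Slc7a5 and of Myc (vertical axis, percent) by class and in neutrophil-marked barcodes (horizontal axis), with 1 point per library and exact 95% intervals for counting error. The Slc7a5 share is 6.84% and 5.13% in the class with Il13 or Csf2 and 1.38% and 0.879% in cells with Itgae and Cd8a.

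Direct comparisons between the 4 classes without cycling genes, 6 pairs in all, gave the sharpest differences against cells with Itgae and Cd8a. In the Tcf7 class 4 members were higher than there, Myc by 1.27 ± 0.26, Slc7a5 by 1.02 ± 0.34, Slc38a1 by 0.77 ± 0.11 and Slc38a2 by 0.93 ± 0.08, where 23.7% of all genes passed and 13.1% were higher. In the Il10 class 4 were higher, Myc by 1.88 ± 0.27, Slc3a2 by 0.59 ± 0.11, Slc38a1 by 1.05 ± 0.12 and Slc38a2 by 1.05 ± 0.08, where 19.7% passed and 11.4% were higher. In the class with Il13 or Csf2, 5 were higher, Myc by 1.12 ± 0.24, Slc3a2 by 0.77 ± 0.08, Slc38a1 by 0.76 ± 0.10, Slc38a2 by 0.82 ± 0.07 and Slc7a5 as given above, where 34.4% passed and 18.9% were higher. These are log2 fold changes with SE from the edgeR fit. The Myc value for the Tcf7 class lost its call after thinning to 1000 UMIs (0.89) and in the second random thinning (0.26), which also ended the Slc7a5 call at 0.37.

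Among the other 3 pairs, the class with Il13 or Csf2 exceeded the Tcf7 class in Slc7a5 (1.47 ± 0.26, edgeR adjusted p = 9.39e-06) and Slc3a2 (0.56 ± 0.10, edgeR adjusted p = 9.95e-06), so 2 of 7 members were higher, against 13.0% of genes that passed and 7.81% that were higher. It exceeded the Il10 class in Slc7a5 by 1.69 ± 0.31 (edgeR adjusted p = 2.50e-05). It was lower than that class in Myc by a log2 fold change of -0.75 ± 0.25 (edgeR adjusted p = 0.0294) and in Slc38a2 by -0.23 ± 0.08 (edgeR adjusted p = 0.0461), so 3 of 7 passed against 13.8% of genes, 7.77% higher and 5.99% lower. The Myc and Slc38a2 calls of this pair were each lost in 6 of 12 alternatives, and the Slc38a2 value turned to 0.06 in the second random thinning. The Il10 class exceeded the Tcf7 class in Slc3a2, by 0.38 ± 0.12 (edgeR adjusted p = 0.0338), 1 of 7 against 6.55% of genes that passed and 3.67% that were higher, and 4 of 12 alternatives lost this call. Without thinning Slc38a1 passed too (0.27), and in the second random thinning Myc did (1.43).

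The high-Slc7a5 and the high-Myc classes were therefore different classes, and the pair test showed the difference for Slc7a5 in all alternatives and for Myc in 6 of 12. Library totals in place of TMM moved the splits of higher and lower calls from 745 and 495 to 635 and 666 in the class with Il13 or Csf2 against Tcf7, and from 350 and 275 to 235 and 416 in Il10 against Tcf7. In the latter they also moved the median of all genes to -0.10 on the log2 scale. Over all 13 comparisons made here, splits by detection included, 33 of 86 member values passed the threshold. These comparisons reuse the same classes and cells, so the values are not separate results. The share of all genes that passed ranged from 1.45% for Myc detection to 37.5% for cells with cycling genes.

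Summed over the 7 genes, cells with Itgae and Cd8a held 574 and 592 CPM, cells with cycling genes 686 and 772, the reference 871 and 875, the Tcf7 class 934 and 932, the class with Il13 or Csf2 976 and 959, and the Il10 class 1050 and 1027 CPM. The libraries of neighbouring classes in this order did not overlap. Slc38a2 and Slc3a2 make up most of each sum, so it says little about Myc, Slc7a5 and Slc7a6. How often other sets of 7 genes separate the classes in this way was not counted. No UMI of any of the 7 was found in 43.9% and 44.9% of thinned cells with Itgae and Cd8a, in 32.2% and 32.6% of the reference and in 26.9% and 25.97% of the Il10 class.

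Cells with cycling genes were also divided by the other flags. With Il13 or Csf2 they held Slc7a5 at 28.0 and 45.6 CPM, and with Itgae and Cd8a at 15.7 and 2.26 CPM, from 1 to 18 UMIs in a library. Myc stood at 44.1 and 63.8 CPM in cycling cells with Il10, from 9 UMIs in each library. These few UMIs give the values only, with no test.

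The partner genes were then followed within cells. In cells with a Slc7a5 UMI, Slc3a2 was found in 29.9% and 32.4%, against 24.5% and 26.5% of cells without, a ratio of 1.22 in both libraries. Slc38a1 was found in 20.4% and 22.0% of cells with Slc38a2 and in 14.98% and 16.0% of cells without. Slc7a5 and Myc shared only 8 cells of 478 with Myc in replicate 1 and 13 of 405 in replicate 2, with ratios of 0.562 and 1.33 that lie on either side of 1. Cells of 1 library are not replicates, and no test was made on them.

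Over sums of cells, with class held constant, cells with a Slc7a5 UMI were compared with cells without, on 5837 tested genes of which 5.33% passed and 3.55% were higher. The Il10 class had too few cells with Slc7a5 and was left out. Of the 5 other members that passed the low-count filter 1 was called: Slc3a2 was higher, by a log2 fold change of 0.44 ± 0.10 (edgeR adjusted p = 0.000757). This call was lost without the low-count filter (0.27), without thinning (0.18) and after thinning to 1000 UMIs (0.32). Slc38a2 stood at 0.23 ± 0.08 (edgeR adjusted p = 0.0780), Slc1a5 at 0.28 ± 0.18, Slc38a1 at 0.16 ± 0.13 and Myc at -0.23 ± 0.33. Without thinning Myc passed as higher (0.38), as did Slc7a6 (0.52), which had not passed the filter, so the Myc value has no fixed direction here. Slc38a2 passed with relative log expression scaling (0.24), library totals (0.25) and no class term (0.22).

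The same comparison for Myc covered 5018 genes, of which 1.45% passed, and edgeR called 0 of the 4 members past the low-count filter, with 0 at an unadjusted p under 0.05. DESeq2 called 0 as well. Slc3a2 stood at 0.02 ± 0.10, Slc1a5 at 0.26 ± 0.16, Slc38a1 at -0.01 ± 0.12 and Slc38a2 at -0.06 ± 0.08, and all but Slc1a5 changed sign in at least 1 alternative.

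The genes whose level over the 12 sums of class and library was most like that of Slc7a5, among 2760 genes, were Pgam1 (Pearson's r = 0.977), Anxa2 (0.968), Pgk1 (0.964), Eno1 (0.960) and Crip1 (0.958). Pgam1, Pgk1 and Eno1 encode enzymes of glycolysis, and Anxa2 and Crip1 a membrane-binding and a LIM domain protein. Pgk1 stood at 516 CPM in the class with Il13 or Csf2, 293 in the reference and 189 in cells with Itgae and Cd8a (means of 2 libraries). Most like Myc were Ptp4a2 (0.910), Ier2 (0.895), Polr1d (0.881), Socs3 (0.881) and Ube2d3 (0.877). Socs3, a feedback inhibitor of cytokine signalling, stood at 160.0 CPM in the Il10 class and 74.1 in the reference. These are descriptions over sums that share 2 libraries.

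Genes around the pathway were counted in 9 lists, beside the share of all tested genes that passed in each direction. The shared barcodes and the cells with markers of another type were included, and the lists were not counted without them. In cells with cycling genes, where 20.9% of all genes were higher and 16.6% lower, 17 of 26 measured Myc targets in growth passed as higher and 1 as lower, with a list median of 0.49 on the log2 scale against -0.01 over all genes. Gart, of purine synthesis, was higher by 1.02 ± 0.14 and Nop58, of ribosomal RNA modification, by 0.79 ± 0.09. Of 14 genes of the Atf4 amino acid response 7 were higher and 2 lower (list median 0.24). Among them were genes of serine and one-carbon synthesis, Psat1 (1.48 ± 0.15), Phgdh (1.30 ± 0.09), Mthfd2 (0.80 ± 0.08) and Shmt2 (0.63 ± 0.16). Of 19 aminoacyl-tRNA synthetases, which load tRNAs, 8 were higher, among them Vars (0.83 ± 0.10) and Gars (0.64 ± 0.09), and 0 lower (list median 0.32).

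Among 10 measured genes of other amino acid transporters, cells with cycling genes had 1 higher and 2 lower (list median -0.05). Slc43a3, which is known as a purine nucleobase carrier, rose from 5.09 and 3.71 to 25.1 and 20.3 CPM (2.40 ± 0.20). In the Myc network Mxd3, an antagonist of Myc that is known from S phase cells, was higher by 3.88 ± 0.16, and Mxd4, another antagonist, was lower, at -0.72 ± 0.07. Of the 11 measured genes of that network 2 were higher and 3 lower (list median -0.20). Of 14 T cell activation genes 0 were higher and 12 lower in these cells (list median -0.44), and of 12 heat shock and immediate early genes 0 were higher and 10 lower (list median -0.55). Of 25 genes of amino acid sensing and mTORC1 1 was higher and 3 lower, and of 13 genes of glutamine and glutamate use 3 were higher and 2 lower (list medians -0.04 and 0.06). The counts of the sensing list, the glutamine list and the other transporters are near or below the shares of all genes. Those of the Myc network rest on few genes beside these shares. None of these counts is a result about its list.

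In cells with Itgae and Cd8a, where 14.5% of all genes were higher and 16.9% lower, 15 of 26 Myc targets in growth were lower and 1 higher, with a list median of -0.35 against 0.00 over all genes. Odc1, the first enzyme of polyamine synthesis, was lower, at -1.12 ± 0.12, as was the nucleolar gene Gnl3 at -0.81 ± 0.11, and the cyclin gene Ccnd2 was higher by 0.92 ± 0.05. Of 13 genes of glutamine and glutamate use 6 were lower and 0 higher (list median -0.35), among them the glutamate dehydrogenase gene Glud1 (-0.51 ± 0.08). Max, the partner of Myc, was higher by 0.79 ± 0.08, with 3 genes of the Myc network higher and 3 lower of 11. Of the 14 genes of the T cell activation list 12 were lower (list median -0.83), with Tnfrsf4 at -2.16 ± 0.10. Il7r, a cytokine receptor gene on that list, stood at -2.42 ± 0.10, and its level is not read here as a sign of activation. The other transporter list had 3 of 10 higher and 2 lower, the tRNA synthetases 1 of 19 higher and 3 lower, the Atf4 response 2 of 14 higher and 3 lower, and the sensing list 2 of 25 higher and 5 lower (list medians -0.01, -0.06, -0.08 and 0.11). These 4 counts rest on few genes beside the shares of all genes, and nothing is read from them about the lists.

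The class with Il13 or Csf2, where 9.52% of all genes were higher and 5.84% lower, had 11 of 14 activation genes higher and 0 lower (list median 0.87, against 0.00 over all genes), with Il2ra at 1.93 ± 0.11 and Tnfrsf9 at 1.66 ± 0.08. Of 26 Myc targets in growth 6 were higher and 0 lower (list median 0.19), among them Tfrc, the transferrin receptor (1.06 ± 0.21), Odc1 (0.94 ± 0.10) and the lactate dehydrogenase gene Ldha (0.56 ± 0.05). Of 10 other transporter genes 3 were higher and 0 lower (list median 0.16). Slc15a3, a peptide and histidine carrier of lysosomes, stood at 78.5 and 57.9 CPM against 20.3 and 18.6 CPM in the reference (1.87 ± 0.14), and the arginine and lysine carrier Slc7a1 was higher by 0.98 ± 0.20 and the taurine carrier Slc6a6 by 0.52 ± 0.12. Of 19 aminoacyl-tRNA synthetases edgeR called 0, and of 14 Atf4 response genes 1 was higher and 1 lower (list medians 0.08 and -0.02).

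Heat shock and immediate early genes respond to handling of cells as well as to stimulation. Their summed level was 9804 and 8939 CPM in the class with Il13 or Csf2, 6331 and 6465 in the reference and 3455 and 3945 in cells with Itgae and Cd8a. In cells with cycling genes it stood at 3904 and 4376 CPM. Of the 12 genes 9 were higher in the class with Il13 or Csf2 and 10 lower in cells with Itgae and Cd8a (list medians 0.60 and -0.85). The mitochondrial share also stood at 3.46% and 3.21% in the class with Il13 or Csf2 against 2.75% and 2.49% in the reference. The part of these genes in the Slc7a5 result was not tested beyond the value without Hspa1a and Hspa1b cells given above.

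In the Il10 class, where 3.7% of all genes were higher and 2.57% lower, 7 of 14 activation genes were higher and 2 lower (list median 0.41, against -0.01 over all genes), with Irf4 at 1.83 ± 0.27, Egr2 at 1.29 ± 0.23 and Batf at 1.15 ± 0.09, all factors induced by receptor signals. Of 26 Myc targets in growth 5 were higher, among them the nucleolar helicase gene Ddx21 (0.59 ± 0.11), and 1 lower (list median 0.22). Mxd1, an antagonist of Myc, was higher by 0.76 ± 0.11. Ddit4, a stress-induced inhibitor of mTORC1, was lower, at -0.98 ± 0.21, and it was higher in the class with Il13 or Csf2 by 0.71 ± 0.11. In the Tcf7 class, where 2.54% of all genes were higher and 2.73% lower, few list genes passed: Il7r was higher by 0.89 ± 0.08 and Ccnd2 lower, at -0.76 ± 0.08, and of the 26 Myc targets 0 were higher and 2 lower (list median 0.03).

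**Figure D5:**
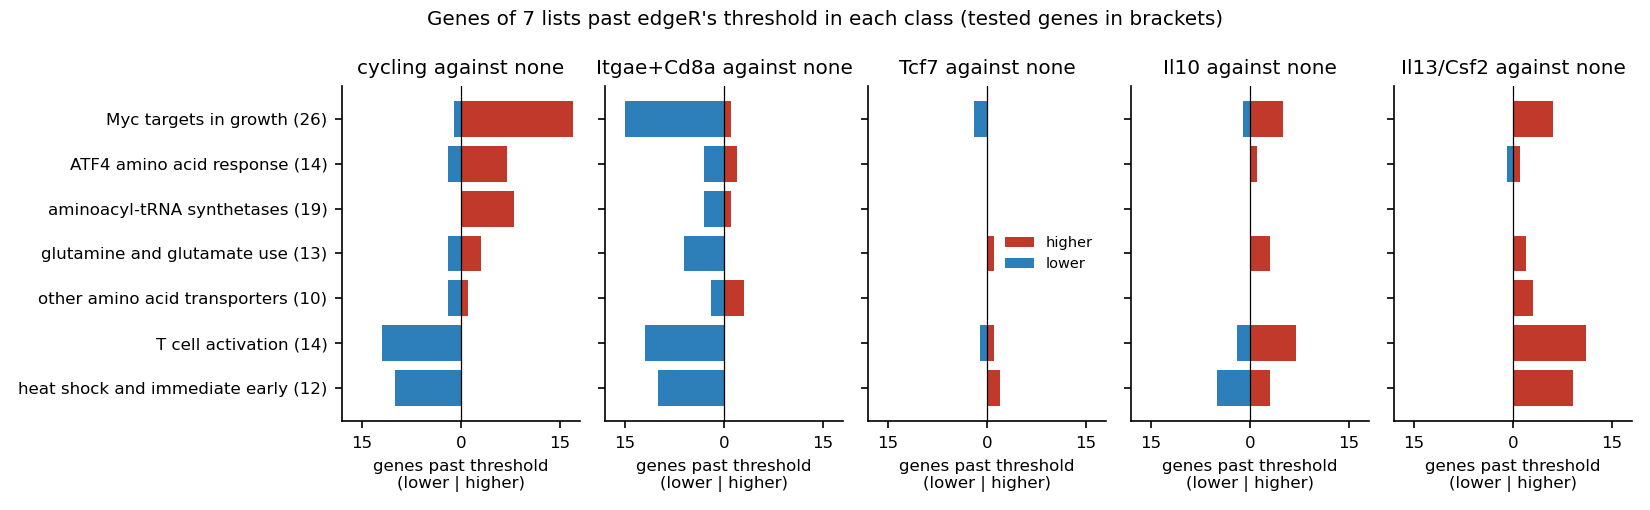
Number of measured genes of each list that passed as higher or lower (horizontal axis, genes) for each class against the reference. Myc targets in growth pass as higher in 17 of 26 in cells with cycling genes and as lower in 15 of 26 in cells with Itgae and Cd8a.

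Within classes, 3.55% of all genes were higher and 1.78% lower in cells with a Slc7a5 UMI. These cells had 9 of 22 measured Myc targets in growth higher and 0 lower (list median 0.37, against -0.02 over all genes), among them Odc1 (0.64 ± 0.15), Ddx21 (0.52 ± 0.12) and Eif4a1 (0.39 ± 0.07). Slc15a3 was higher by 1.04 ± 0.23, the lysyl-tRNA synthetase gene Kars by 0.92 ± 0.26 and Glud1 by 0.47 ± 0.12. Activation genes were higher in 7 of 13, with Il2ra at 1.05 ± 0.19 and Tnfrsf9 at 0.86 ± 0.12, and heat shock and immediate early genes in 6 of 12, with Hspa1a at 0.84 ± 0.10. In cells with a Myc UMI 1.06% of all genes were higher and 0.399% lower. These cells had 5 of 21 Myc targets higher and 0 lower (list median 0.28, against -0.01 over all genes), among them Nolc1 (0.70 ± 0.18), Nop58 (0.62 ± 0.16), Eif4a1 (0.40 ± 0.07) and Ncl (0.30 ± 0.08). Hspa1a was higher there by 0.94 ± 0.17, Batf by 0.49 ± 0.11 and Il7r by 0.47 ± 0.11. All list genes named passed the edgeR threshold in the comparison given.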

How the data were processed

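The files are deposited counts: per the file headers, raw UMI counts per gene and barcode that the authors made with Cell Ranger 3.1.0, and per the submitters' processing notes against mm10. Whether reads were assigned by strand is not given in the sources used here. The hashtag libraries were read but enter no comparison. Cells, thinning (seed 20, to 1500 UMIs, the depth that at least 80% of T cells reached) and classes are as the report states. Doublets were not called, and leaving out the 5% of cells with the most UMIs was an alternative. Thinned counts were summed by class and library into 12 sums and fitted together in edgeR 4.0.16 (R 4.3.3; glmQLFit, TMM, filterByExpr) with the library as a block, since all classes of a library share its preparation (5 residual degrees of freedom). The genes that define the classes were left out of the tested table. Cells with and without a Myc or Slc7a5 UMI were compared with class as a further term, on 24 and 20 sums of at least 10 cells. SE is the log2 fold change over the root of the F statistic, Benjamini-Hochberg adjustment covers all genes of a fit, and intervals are Clopper-Pearson (scipy 1.17.1). Positions and names were matched by gene identifier. The fits were tested on simulated counts. For Il13 or Csf2 against the reference, 14.1% of genes given a log2 change of 0.5 were recovered. For Myc and Slc7a5 detection the shares were 31.3% and 24.2%. With a change of 1.0 they were 65.6%, 79.6% and 74.5% in the same order. The changed genes were drawn at random from all levels past the low-count filter, with the same dispersion for each. These shares therefore do not describe single members, whose SE differ. The lack of a call alone does not exclude a change of 0.5, and for a member its value and SE are to be read. Alternatives were relative log expression scaling, no low-count filter, DESeq2 1.42.0, no thinning, thinning to 1000 UMIs, at least 3 cycling genes, each flag against all other T cells, no replicate block, no class term, and leaving out cells with markers of other cell types, the deepest cells or a replicate. A second random thinning, library totals, and leaving out shared barcodes or cells with Hspa1a and Hspa1b were chosen after seeing the data. Named genes are all 7 members, up to 4 called genes a list, ranked by size of change (20 CPM or more in 1 of the classes compared), and the 5 most like Slc7a5 and Myc among genes of at least 50 CPM; part of these is printed. The members and lists were chosen with earlier results of these data known.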

Additional observations from a re-analysis of the deposited data

Results flagged for a closer look

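The hashtag libraries held gene UMIs that enter no comparison. They gave 0 hashtag features but 157432 gene UMIs in replicate 1 and 208698 in replicate 2, among them 61 and 79 UMIs of Slc38a2, 42 and 62 of Slc3a2, and 3 and 3 of Slc7a5. The source of these UMIs was not tested.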

How the results depend on the processing

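Every p-value rests on 2 libraries, leaving out either gives values with no test, and low counts limit Slc7a6, Myc and Slc7a5 most. Of the member values followed through each alternative, counted once per setting, 444 called ones kept their direction and their call, 34 lost the call and 1 reversed. Of those not called 181 stayed so, 7 passed and 23 reversed. Over all members and comparisons, 25 values that were not called passed under some alternative. The cause of these changes was not tested, except that thinning to 1000 UMIs keeps fewer counts and no thinning more. With DESeq2 the genes called were 1967 with cycling genes, 1608 with Itgae and Cd8a, 287 with Tcf7, 384 with Il10 and 790 with Il13 or Csf2 against the reference, and 870 for Il13 or Csf2 against Il10. With thinning to 1000 UMIs they were 1771 (Itgae and Cd8a), 258 (Tcf7) and 322 (Il10) against the reference. Between classes they were then 1447 (Tcf7 against Itgae and Cd8a), 1158 (Il10 against Itgae and Cd8a), 279 (Il10 against Tcf7), 710 and 769 (Il13 or Csf2 against Tcf7 and Il10), and 31 and 166 for Myc and Slc7a5 detection. Without thinning they were 3856, 2980 and 4961 (Tcf7, Il10, and Il13 or Csf2 against Itgae and Cd8a), 1080 (Il10 against Tcf7), 1996 and 2086 (Il13 or Csf2 against Tcf7 and Il10), and 1069 and 2030 for detection. Without the replicate block they were 241 (Tcf7), 336 (Il10), 388 (Il10 against Tcf7) and 43 (Myc detection), and other counts of calls stayed within 1.5 times. The Tcf7 flag against all other T cells gave 1064 genes and 2 members. For Myc and Slc7a5 detection, no low-count filter gave 295 and 534 genes, and no class term 167 and 688.

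The counts of members that follow show only how calls moved with the setting. They stand without the share of all genes that passed in that setting, so nothing is read from them about the members. Members called were 1 with cycling genes without the 5% of the most UMIs, 1 with Il10 at 1000 UMIs and 5 with Il13 or Csf2 in the second random thinning. For Il10 against Tcf7 they were 0 with DESeq2, 1000 UMIs, no replicate block or library totals and 2 with no thinning or the second thinning. For Il13 or Csf2 against Il10 they were 1 with DESeq2, 1000 UMIs, no replicate block or the second thinning. With Slc7a5 detection they were 0 with no filter or 1000 UMIs, and 2 with relative log expression scaling, no thinning, no class term or library totals. Reversed log2 values were -0.20 for Myc in Tcf7 (second thinning), -0.050 for Slc38a2 in Tcf7 (no thinning) and 0.056 for Slc38a2 in Il13 or Csf2 against Il10 (second thinning). With Myc detection, Slc3a2 was at -0.16 (no filter), -0.051 (no thinning), -0.035 (no other-type markers) and -0.0089 (no class term), and from -0.016 to 0.15 leaving out a replicate. Slc38a1 was at 0.034 (no thinning), 0.062 (1000 UMIs), 0.0055 (without the deepest 5%), 0.11 (no class term) and 0.10 (second thinning), and from -0.19 to 0.26 leaving out a replicate. Slc38a2 was at 0.0035 (1000 UMIs), 0.030 (no class term) and 0.17 (second thinning), and from -0.068 to 0.063 leaving out a replicate. With Slc7a5 detection, Myc was at 0.38 (no thinning), 0.051 (no class term) and from -0.41 to 0.30 leaving out a replicate, Slc1a5 at -0.17 (second thinning), Slc38a1 at -0.0037 (no filter) and Slc38a2 at -0.041 (no thinning).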
